A study of Hydra viridissima with 2 samples.

Results

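Gene models that overlap a model on the other strand made up 322 of the 34573 models of the green hydra annotation, or 0.931%. They were chosen by position alone: the span of a model, from its lowest to its highest exon position, had to share at least 1 base with the span of another model on the same scaffold and the opposite strand. The 322 models formed 190 pairs. In 186 pairs, 97.9%, one span lay wholly inside the other (nested), and in 4 pairs the spans overlapped in part. The nested pairs held 180 inner models and 134 hosts, no model was both, and the partial overlaps held the other 8 models. The shortest stretches shared by partners were 2 and 47 bases, and the nearest opposite-strand neighbours just outside the rule lay 7 and 9 bases apart.

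The study sequenced total RNA, depleted of ribosomal RNA by enzymes, from whole polyps of Hydra viridissima clone 2 in paired reads. Green hydra carries unicellular green algae in the cells that line its gut. There was 1 library from aposymbiotic polyps, which lack the algae, and 1 from green, symbiotic polyps of the same clone number. Each library pooled about 200 large polyps grown at 24 °C on brine shrimp. Counts on gene models summed to 5533508 read pairs for aposymbiotic and 6905650 for symbiotic polyps. With 1 library of 1 clone per condition there is no replicate check, so no test was made and each difference is one between these libraries. In whole polyps, fewer cells of a type and less RNA per cell cannot be told apart.

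A gene that sits inside an intron of another gene is transcribed from its own start, and where the strands differ it is read in the direction opposite to its host. The host's primary transcript still runs through the nested gene before splicing removes the intron. Partners that overlap at their ends are called tail-to-tail where the 3′ ends meet and head-to-head where the 5′ ends meet. The identifiers come without gene names in the files used here, so what these genes do is not described and models are given by position. Reads were counted on exons without regard to strand, so reads from a nested gene and reads from the unspliced intron of its host cannot be told apart.

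Nested models lay in introns. Each of the 186 nested pairs had its inner model within 1 intron of the host, and 0 of the 186 shared an exonic base. Among models nested on the same strand, 137 of 203 pairs shared exonic bases. The introns that held an opposite-strand model had a median length of 7424 bases (1267 to 294411), against 215 bases over all 109911 introns of the annotation. An intron has to be at least as long as the model it holds, so part of this difference is set by the rule. In hosts with at least 2 introns, the holding intron was the longest of the host in 122 of 166 pairs. The same limit applies to this count, and some pairs share a host. In hosts with at least 3 introns, 25 of 141 inner models lay in the first intron, 16 in the last and 100 in another, and these hosts had a median of 12 introns. The inner model took a median of 10.4% of the intron and stood a median of 1500 bases from the nearest host exon. Of the 186, 4 stood within 100 bases of one, the closest at 33. Coding lengths are multiples of 3 in 98.4% of all models and 94.7% of the overlapping ones, so untranslated ends are largely outside the spans and overlaps between them are not seen here.

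Hosts and inner models differed in structure, and part of this is set by the rule. A host has to span more than its inner model, and a host with an intron has at least 2 exons. Hosts had a median of 12 exons, 1797 coding bases and a span of 15722.5 bases. Inner models had a median of 1 exon, 601.5 coding bases and a span of 740 bases, and 96 of the 180 had a single exon. Without scaffold 5, inner models had a median of 2 exons, 786 coding bases and a span of 1085 bases, and 56 of 137 had a single exon. Of the 134 hosts, 117 held 1 opposite-strand model, 9 held 2, 3 held 3 and 5 held 4 or more. Of all 190 pairs, 49 lay on scaffold 5. In 43 of these neither partner had a count, and there hosts and inner models recur in a repeat. In 5 others both partners were measurable and in 1 the host alone, so leaving out scaffold 5 removes these pairs too.

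A model was taken as measurable at a mean of at least 1 CPM over both libraries (CPM, counts relative to the scaled library total). This was met by 243 of the 322 overlapping models, 75.5%, and by 46.7% of all models. Of the hosts 121 of 134 met it, of the inner models 116 of 180, and of the partial overlaps 6 of 8. The 101 hosts with more than 5 exons all met it, as did 97.4% of models of that size without an opposite-strand overlap. Hosts of 2 to 5 exons met it in 20 of 33 cases, 60.6%, and 12 of them had no count. Models of 2 to 5 exons without such an overlap met it in 66.8% of cases. Inner models of several exons, with a median of 3 exons, met it in 75 of 84 cases, 89.3%. Models of several exons without such an overlap met it in 80.7% of cases, and those of 2 to 5 exons in 66.8%. Models of several exons nested on the same strand without shared exonic bases stood near the inner models, at 35 of 40, 87.5%. Single-exon inner models met it in 41 of 96 cases, 42.7%, against 20.9% of single-exon models without an opposite-strand overlap.

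Many single-exon models of this annotation have an exact coding length that is found in at least 100 single-exon models, and most of those have no count. Such shared lengths occurred in 41 of the 96 single-exon inner models, 37 of them without a count, against 3447 of 4950 over all models. Among the other 55 single-exon inner models, 39 were measurable, 70.9%, and 3 had no count. Among single-exon models without an opposite-strand overlap and without a shared length, 25.7% were measurable and 36.9% had no count. Single-exon models nested on the same strand without shared exonic bases stood nearer to the inner models, at 9 of 15 measurable. These shares are descriptions over models, which are not replicates.

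**Figure D1:**
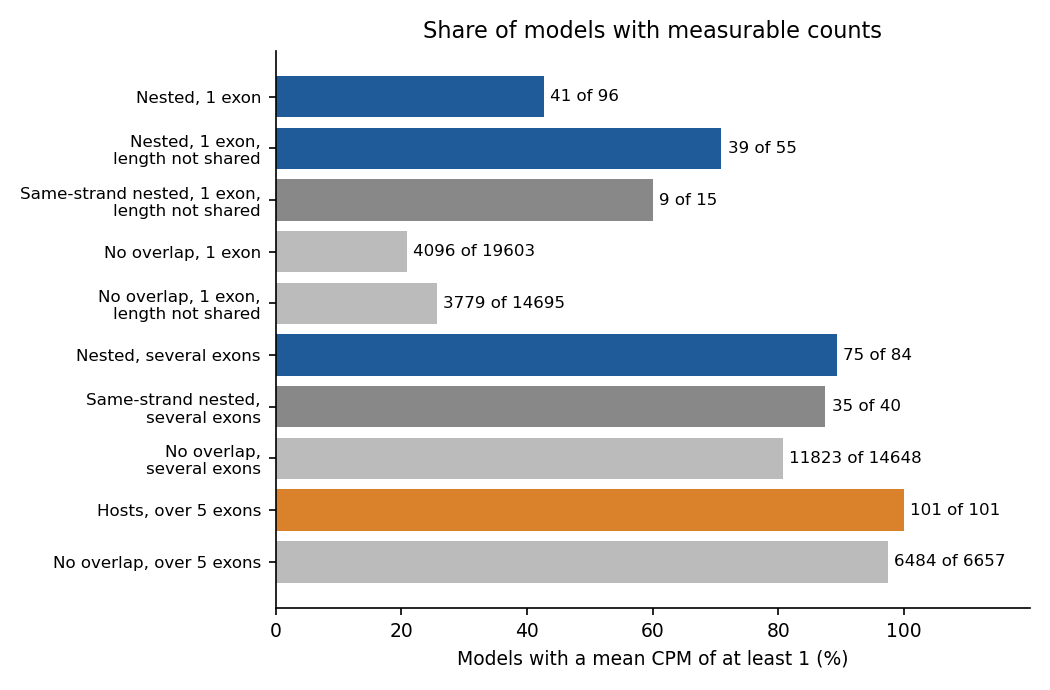
Share of models with a mean CPM of at least 1, by class; bars start at 0 and the numbers give measurable models of all models in the class. Single-exon nested models without a shared length stand at 39 of 55, above the 3779 of 14695 such models without an opposite-strand overlap, while hosts of more than 5 exons stand at 101 of 101.

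Measurable inner models lay in measurable hosts. In 116 nested pairs both partners were measurable, in 24 the host alone, in 46 neither, and in 0 the inner model alone. Of the 46 pairs with neither, 43 were on scaffold 5 and had no count in either partner. Outside scaffold 5, 111 of 137 pairs had both partners measurable, 23 the host alone and 3 neither. As 115 of the 118 hosts there were measurable, few pairs could have had the inner model alone measurable. Where the host was measurable, 2 of the 140 inner models had no count. The pair on scaffold 12 with a 10-exon host (11230379 to 11244933, 662 aposymbiotic and 728 symbiotic counts) held a single-exon model of 2238 nt (11235652 to 11237889) with 0 and 0 counts. The pair on scaffold 2 with an 8-exon host (11122154 to 11136400, 96 and 138 counts) held a single-exon model of the same 2238 nt with 0 and 0 counts. Both were chosen after their values were seen.

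Per kilobase of coding length, inner models stood below their hosts in most measurable pairs, but the partners were near balance where both were abundant. The median level was 8.60 CPM per kilobase among the 116 measurable inner models and 23.1 among the 121 measurable hosts, against 13.7 over all 16162 measurable models. Hosts of more than 5 exons had a median of 23.8, close to 24.2 in models of that size without an opposite-strand overlap. Inner models of several exons had a median of 9.88 and a median of 3 exons. Models of several exons without an opposite-strand overlap stood at 18.5, but with a median of 5 exons. Those of 2 to 5 exons, with a median of 3, stood closer, at 11.7. Models of several exons nested on the same strand without shared exonic bases stood at 7.61. Single-exon inner models had a median of 5.17, against 4.54 in single-exon models without an opposite-strand overlap. In the 116 pairs with both partners measurable, the host was higher in 85 and the inner model in 31. The host was at least 2-fold higher in 62 pairs, the inner model at least 2-fold higher in 19, and 35 lay within 2-fold. The median difference, inner minus host, was -1.24 on the log2 scale. The direction turned with both partners at a mean CPM of at least 10, where the inner model was higher in 27 of 51 pairs and the host in 24, with a median of 0.26. Of these 27 pairs, 8 lie in 1 host whose nesting is uncertain. The larger count of pairs with the inner model higher depends on that host. With a floor of 10 CPM per kilobase in both partners in place of CPM, the host was higher in 20 of 36 pairs and the inner model in 16, with a median of -0.28. The median inner model is shorter than the median host, and a floor in CPM lies higher per kilobase in a shorter model. The host with 8 of the 27 pairs, at a mean of 5.63 CPM per kilobase, passed the first floor but not the second. The cause of the change between floors was not tested.

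Partners differed by a median of 1.80 on the log2 scale of CPM per kilobase (quartiles 0.92 and 2.55), regardless of which was higher, and by 1.78 with the 3 measurable partial pairs included. Over the 4653 adjacent opposite-strand pairs whose spans do not overlap, with both partners measurable, the median was 1.60. With both partners at a mean CPM of at least 10, it was 1.42 in 51 nested pairs and 1.17 in 2058 adjacent pairs. Differences of 8-fold or more occurred in 20.7% of nested and 22.6% of adjacent pairs. The host was the higher partner in 21 of those 24 nested pairs, but in 4 of the 7 that were left with both partners at a mean CPM of at least 10.

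Over all pairs with a measurable host, inner models were somewhat higher in hosts of higher level. As a description, Spearman's rho between the levels was 0.24 over the 140 pairs with a measurable host, 0.37 over the 58 pairs with a single-exon inner model and 0.16 over the 82 with an inner model of several exons. Pairs share both libraries, and some share a host. Single-exon inner models had a median of 2.03 CPM per kilobase in the 29 pairs with the host below the median host level and 5.17 in the 29 at or above it. For inner models of several exons these medians were 7.13 and 12.6. Over the 116 pairs with both partners measurable, rho was 0.046, against 0.19 over the 4653 adjacent pairs. The part of host intron reads in these levels was not tested.

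**Figure D2:**
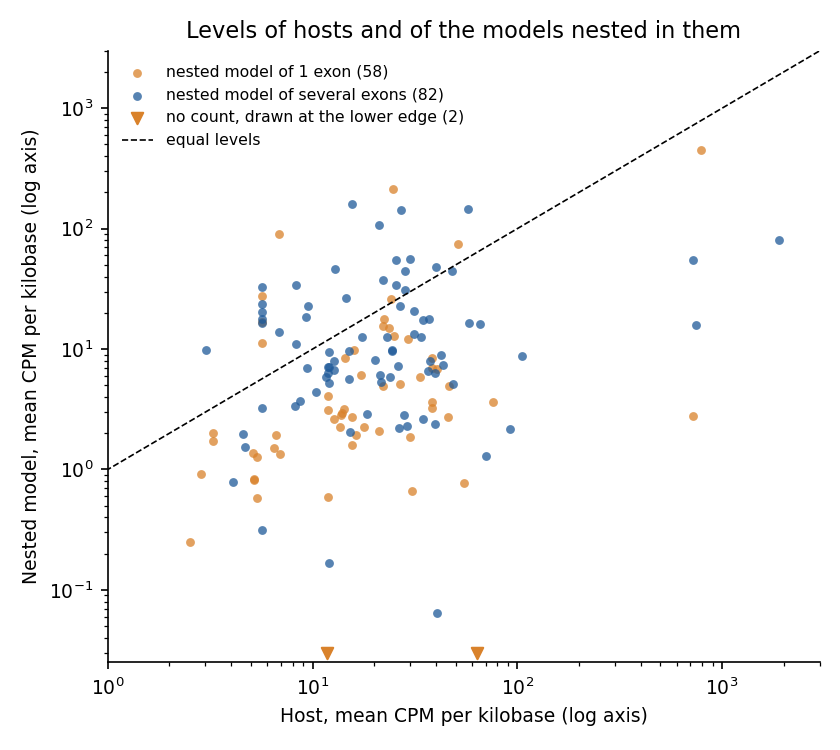
Mean CPM per kilobase of host (horizontal) and nested model (vertical) in the 140 nested pairs with a measurable host, on log axes; the dashed line marks equal levels and triangles are 2 nested models without a count. Most points lie below the line, with 85 of the 116 fully measurable pairs higher in the host. With both partners at 10 CPM or more, the host was higher in 24 of 51 pairs. Of these 51 pairs, 8 share 1 host, with the inner model higher in each.

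Among the nested pairs whose less abundant partner was highest, the inner model was above the host in 3 of 6. The first was on scaffold 7, where a 3-exon host (17602392 to 17640149, plus strand) had 669 CPM per kilobase in aposymbiotic and 912 in symbiotic polyps. Its single-exon inner model (17631892 to 17632626, minus strand) had 346 and 558. Both models of this pair are 735 nt long. On scaffold 1, a 20-exon host (1574603 to 1701517, minus strand) had 25.8 and 28.3 CPM per kilobase, and the 2-exon model in its 13th intron (1639821 to 1641268) had 164 and 124, above the host in both libraries.

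On scaffold 1, the most abundant host of all, a 5-exon model (13526776 to 13541432, plus strand), had 21188 and 23452 counts. Its share of the counts of all hosts together was 28.4% in aposymbiotic and 25.7% in symbiotic polyps. The 4-exon model in its last intron (13533075 to 13535226) had 590 and 771 counts, or 78.6 and 83.9 CPM per kilobase against 1992 and 1801 for the host. Here the partners differed by -4.55 on the log2 scale, inner minus host. On scaffold 5, a 42-exon host (16251334 to 16284819) had 29.2 and 27.4 CPM per kilobase and the 16-exon model within its 30th intron (16274020 to 16280297) had 40.2 and 49.5. That inner model fills most of an intron of 6752 bases and ends 156 bases from a host exon.

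On scaffold 12, an 18-exon host (4943764 to 4960123) had 21.6 and 20.5 CPM per kilobase, and its 3-exon inner model (4947378 to 4948694) had 120 and 94.6. The 34-exon model on scaffold 5 (2840859 to 2864911, minus strand) lay in the last intron of a 4-exon host (2833055 to 2880655, plus strand). The host had 720 and 779 CPM per kilobase and the inner model 16.9 and 14.8, so the model with more exons was the lower of this pair.

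The 4 largest level differences among measurable pairs all had the host higher, and the pair of 4-exon host and 34-exon model just described was one of them, at -5.56 on the log2 scale, inner minus host. On scaffold 6, a 5-exon host (15694164 to 15753444) had 3414 and 4974 counts, whereas a single-exon model of 1455 nt in its intron 3 (15720493 to 15721947) had 22 and 28. The difference was -8.04 on the log2 scale, at 661 and 787 against 2.71 and 2.81 CPM per kilobase. On scaffold 8, a 13-exon host (10161069 to 10186316) had 566 and 751 counts and its single-exon inner model (10178784 to 10180709) 10 and 8, a difference of -6.17. A 13-exon host on scaffold 3 (9778512 to 9791345) had 697 and 836 counts and its 2-exon inner model (9787451 to 9788595) 12 and 17, a difference of -5.40.

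The inner model was at least 8-fold higher in 3 pairs, which were chosen after their values were seen. On scaffold 5, a single-exon model of 825 nt (13419276 to 13420100) had 64.9 and 116 CPM per kilobase inside a 24-exon host (13409253 to 13431653) at 5.69 and 8.03. On scaffold 2, the level of a 9-exon model (20556287 to 20560908) was 177 and 141 inside a 30-exon host (20553411 to 20584376) at 14.9 and 16.2. On scaffold 10, a single-exon model of 903 nt (1714400 to 1715302) had 187 and 237 inside a 10-exon host (1710966 to 1716571) at 22.1 and 27.2. In each of the 3, the inner model was the higher partner in both libraries.

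Few overlapping models differed between the libraries. A model was counted as different when its symbiotic over aposymbiotic ratio was at least 2-fold and its exact 95% interval, which covers counting error only, excluded equality. Of the 243 measurable overlapping models, 1 was higher in the symbiotic library (0.412%) and 3 were lower (1.23%). Over all 16162 measurable models, 0.947% were higher and 1.42% lower, so the shares of the overlapping models were near the background. Their median log2 ratio was -0.0079, against 0.013 over all measurable models. It was -0.026 among hosts and 0.051 among inner models. At a mean CPM of at least 10, 90.9% of 165 overlapping models had a log2 ratio between -0.5 and 0.5, against 94.7% of all such models.

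The 4 models past the rule were 1 host and 3 inner models. Model cHydvir-v1B3C1_g4794, a 35-exon host on scaffold 10 (4485981 to 4507500, plus strand, 5910 nt), had 159 aposymbiotic and 68 symbiotic counts. Its log2 ratio was -1.51 (95% counting interval -1.95 to -1.10). Its 31st intron held 2 single-exon models, with 5 and 2 counts in one (4502451 to 4502795) and 4 and 4 in the other (4503138 to 4503458), too few to show a difference at this depth.

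Model cHydvir-v1B3C1_g22776 lies on scaffold 4 (13845188 to 13886508, plus strand), has 16 exons and 11286 nt, and received 459 and 242 counts. Its log2 ratio was -1.21 (-1.45 to -0.99). Its host (13722609 to 14018275, minus strand) had 913 and 731 counts, with its log2 ratio at -0.61 (-0.76 to -0.47), so both partners were lower in the symbiotic library, the inner model by more. The host has 17 exons and the same coding length of 11286 nt. This pair and the 735 nt pair on scaffold 7 were the 2 of 190 with equal coding lengths. Without sequences, whether reads of such partners could be assigned to one of them was not tested, so their separate values are uncertain.

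A 6-exon inner model of 573 nt on scaffold 12 (12994032 to 12995702, minus strand) had 97 and 43 counts, and its log2 ratio was -1.45 (-2.02 to -0.93). Its 11-exon host (12985607 to 12998963) had 182 and 295 counts and stood at 0.40 (0.13 to 0.68), in the opposite direction. The 1 higher model was a 4-exon inner model on scaffold 22 (226341 to 233540, plus strand) with 10 and 38 counts, at 1.59 (0.60 to 2.80). Its 14-exon host (217993 to 234085) had 61 and 72 counts and stood at -0.053 (-0.57 to 0.46), near equality. The interval of this inner model is wide, as its counts are low.

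**Figure D3:**
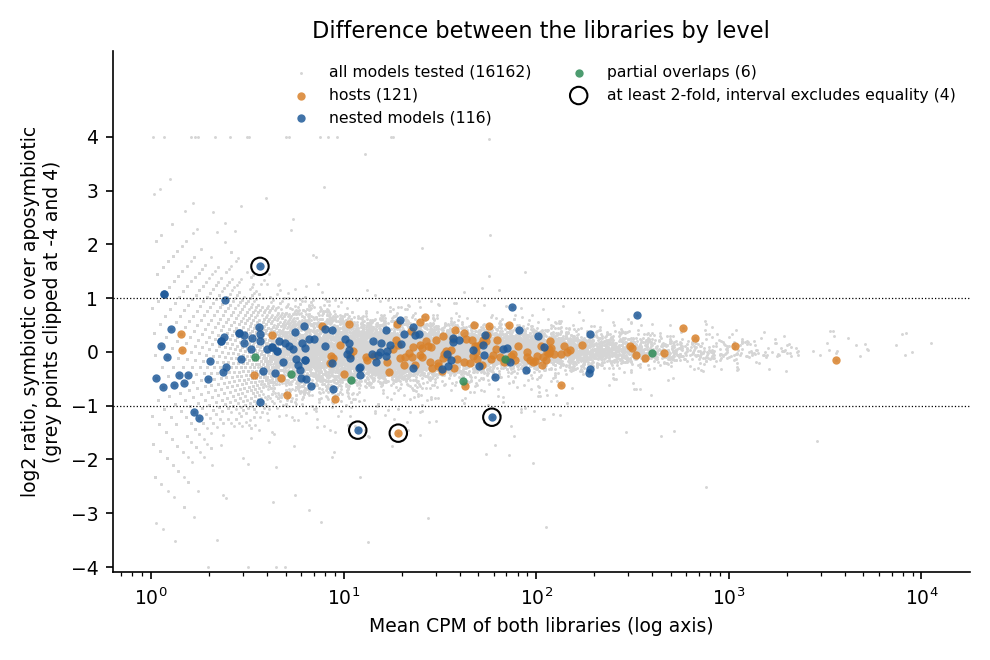
Log2 ratio of symbiotic over aposymbiotic CPM against mean CPM (log axis) for hosts, nested models and partial overlaps, over all 16162 measurable models in grey; dotted lines mark 2-fold and circles the 4 overlapping models that passed it with an interval excluding equality. The other overlapping models lie within the grey cloud, most of them between the dotted lines.

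The balance within pairs was much the same in both libraries. The within-pair ratio compares the inner model's change with the host's and does not depend on the scaling of the libraries. It differed at least 2-fold, with an exact 95% interval that excluded equality, in 3 of 119 pairs with both partners measurable (116 nested and 3 partial), or 2.52%. Among adjacent opposite-strand pairs whose spans do not overlap the share was 4.10% of 4653. At a mean CPM of at least 10 in both partners it was 1 of 53 overlapping pairs, against 1.36% of 2058 adjacent pairs. The same partner was the higher one in both libraries in 113 of 116 nested pairs, 97.4%, and in 93.2% of adjacent pairs.

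The 3 pairs included those on scaffolds 12 and 22 given above. On scaffold 12 the log2 within-pair ratio was -1.86 (-2.49 to -1.26), and the log2 level difference, inner minus host, was 0.16 in aposymbiotic and -1.71 in symbiotic polyps. On scaffold 22 the within-pair ratio was 1.64 (0.50 to 2.97), with the inner model below its host in both libraries. The third was a single-exon model of 138 nt on scaffold 1 (1500347 to 1500484) with 14 and 7 counts in a 15-exon host (1487172 to 1501229) with 190 and 274. Its within-pair ratio was -1.48 (-3.10 to -0.088), close to equality at the upper end.

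**Figure D4:**
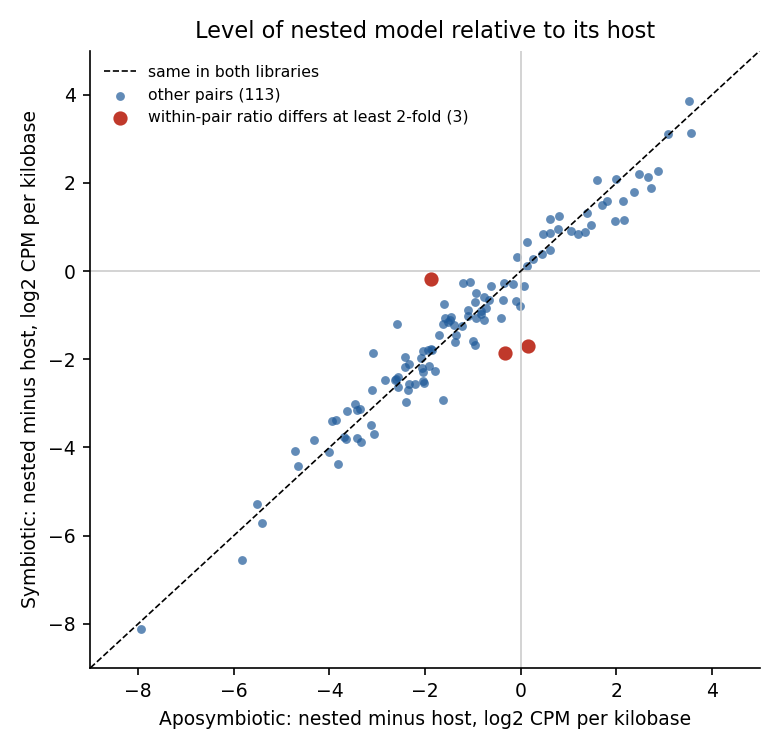
Level of the nested model minus that of its host, log2 CPM per kilobase, in the aposymbiotic (horizontal) and symbiotic (vertical) library for the 116 nested pairs with both partners measurable; the dashed line marks equal differences. Points follow the line from about -8 to 4, and the 3 pairs with a within-pair ratio at least 2-fold different (red) stand off it.

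Ratios of host and inner model showed little relation across pairs. Partners' log2 ratios differed by a median of 0.35 over the 119 pairs, regardless of direction, and by 0.29 over adjacent pairs. Spearman's rho between the log2 ratios of host and inner model was -0.0088 over 116 nested pairs and 0.030 over 4653 adjacent pairs. In 10 of the 116 nested pairs the intervals of both partners excluded equality. In 5 of these the partners were on the same side, 4 both higher and 1 both lower in the symbiotic library. In the other 5 they were on opposite sides. Those on opposite sides include the inner models at 15918779 and 16027741, which share the longest host, on scaffold 1, whose nesting is uncertain. Among the 4653 adjacent pairs it was 230, with 125 on the same side and 105 on opposite sides. The 2 pairs of equal coding length, whose separate values are uncertain, were among the 5 on the same side, 1 both higher and 1 both lower. The pair of 735 nt models on scaffold 7 was among those both higher, with log2 ratios of 0.45 (0.38 to 0.52) for the host and 0.69 (0.60 to 0.78) for the inner model. The single-exon model of 825 nt on scaffold 5 stood at 0.83 (0.64 to 1.04) and its host at 0.50 (0.25 to 0.74). On scaffold 1, the 2-exon inner model at 1639821 stood at -0.40 (-0.52 to -0.28) and its host at 0.13 (0.0085 to 0.26).

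Some hosts held many models. Whether the hosts with the longest spans, on scaffolds 1 and 4, are single genes or neighbouring genes joined by the annotation was not tested, so the nesting of the 12 models inside them is uncertain. The longest, on scaffold 1 (15880448 to 16178476, minus strand), spanned 298029 bases with 3 exons and 3339 coding bases. Its second intron, of 294411 bases, held 9 opposite-strand models, and 8 same-strand models lay inside the host too. The host had 86 aposymbiotic and 152 symbiotic counts, or 4.61 and 6.65 CPM per kilobase, for a log2 ratio of 0.53 (0.14 to 0.93). Of the 9 opposite-strand models, 8 stood above the host, at means of 11.2 to 32.8 CPM per kilobase. The ninth, a 3-exon model of 702 nt (16000448 to 16001532), had 0 and 3 counts.

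The 9 models on the opposite strand differed in structure, from 1 to 17 exons. The 17-exon model nearest the host's 5′ end (16115518 to 16124032) was the highest, with 33.6 and 32.1 CPM per kilobase and a log2 ratio of -0.066 (-0.29 to 0.16). A 4-exon model (15918779 to 15930269) had 394 and 348 counts, at a log2 ratio of -0.47 (-0.68 to -0.26), and a single-exon model (16027741 to 16028910) had 200 and 196 counts, at -0.32 (-0.61 to -0.030). These 4-exon and single-exon models lay below equality and the host above it. Of the 9, 3 had log2 ratios above 0, each with an interval that included equality. The 8 same-strand models stood between 7.15 and 57.6 CPM per kilobase, also above the host.

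**Figure D5:**
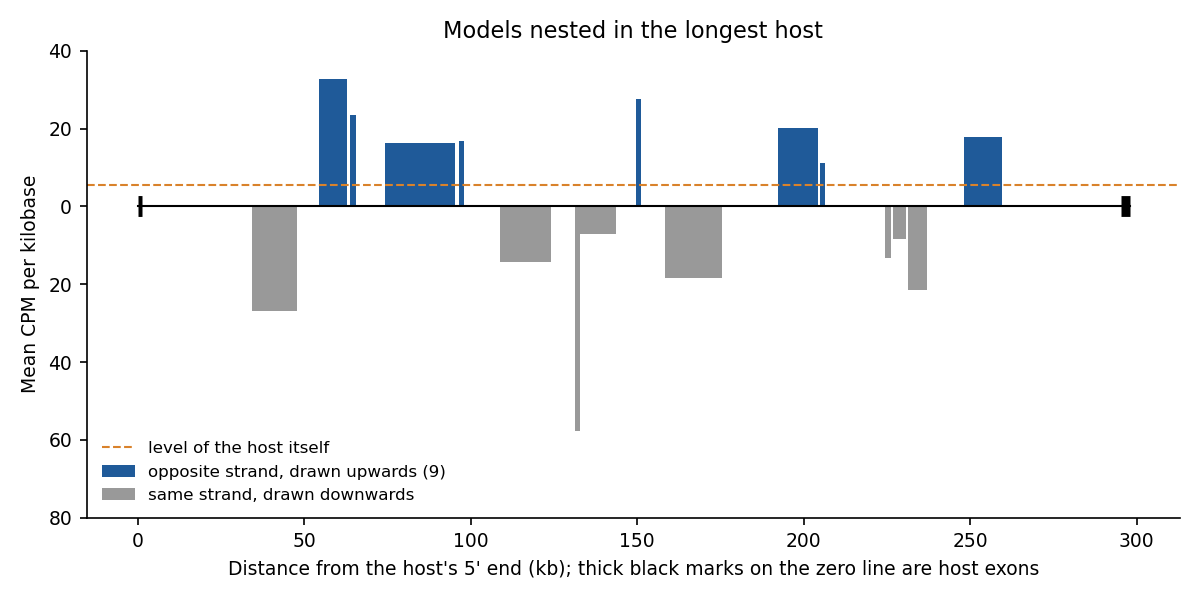
Models nested in the longest host, by distance from its 5′ end in kilobases; bar width is the span (at least 1.5 kb is drawn) and bar height the mean CPM per kilobase, upwards for the opposite and downwards for the same strand, and the dashed line is the host's own 5.63. Of the 9 opposite-strand models, 8 stand above the dashed line and 1, at 0.312, is too low to see.

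On scaffold 4, the 17-exon host of the equal-length pair spanned 295667 bases, and its ninth intron held 3 opposite-strand models. Besides the one of equal length these were a 2-exon model of 1065 nt (13775133 to 13776337) with 2 and 0 counts and a 5-exon model of 426 nt (13934150 to 13936177) with 15 and 23. A 15-exon host on scaffold 14 (4520598 to 4547302) had 109 and 103 counts and held 4 opposite-strand models with 100 and 102 counts in sum. The host with most inner models was on scaffold 5, a 4-exon model (1290056 to 1348113) that held 15 single-exon models. A 2-exon host there (607136 to 642313) held 8 and a 3-exon host (619321 to 642313) held 6. None of these 3 hosts or their inner models had a count in either library. The 6 inner models of the 3-exon host lay in the 2-exon host as well. Over all hosts, single-exon inner models of 405 and 411 nt occurred 18 times each, and 0 of the 36 had a count. Reads that align in several places were left out of the counting, so the absence of counts does not give the level of these repeated models.

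The 4 partial overlaps were the pairs that shared exonic bases, 2 to 56 of them. Counting left out read pairs that touched both models, so counts there can miss the shared stretch. A tail-to-tail pair on scaffold 2 shared 130 bases, 56 of them exonic. Its single-exon partner (7596223 to 7597008, plus strand) had 276 and 233 counts, or 62.9 and 43.3 CPM per kilobase, for a log2 ratio of -0.54 (-0.79 to -0.28). Its 34-exon partner (7596879 to 7618528, minus strand) had 2260 and 2716 counts and stood at -0.027 (-0.11 to 0.054). The exonic stretch shared was 7.12% of the single-exon model and 0.976% of the other.

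A second tail-to-tail pair on scaffold 2 shared 1359 bases, 25 of them exonic. Its 6-exon partner (17326446 to 17329471) had 401 and 450 counts, at a log2 ratio of -0.13 (-0.32 to 0.072), and its 7-exon partner (17328113 to 17339479) 72 and 61 counts, at -0.53 (-1.05 to -0.019). On scaffold 9, 2 single-exon models (9609932 to 9610927 and 9610881 to 9612320) shared 47 bases and had 34 and 31 against 20 and 23 counts, with intervals that included equality. The head-to-head pair on scaffold 2 (18952759 to 18954504 and 18954503 to 18955606) shared 2 bases and had 1 count in all. None of the 8 models met the 2-fold rule. The 6 that were measurable, in 3 pairs, all had a log2 ratio below 0, from -0.54 to -0.027. Over all measurable models, 51.9% had a log2 ratio above 0.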

How the data were processed

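Per the file headers, the authors counted read pairs over exons per gene model with featureCounts of Subread 2.1.1, without strand and without options for reads with several alignments or several models; these deposited counts were the input. Also named in the submitters' processing notes are STAR 2.7.11b, fastp 1.1.0 and deepTools 3.5.6. Per the file headers, the annotation was a conservative BRAKER3 set, with the genome build not given in the sources used here. The labels name polyA RNA as the molecule, while their protocols describe total RNA.

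CPM used TMM-scaled totals (edgeR 4.0.16, R 4.3.3). Log2 ratios had a prior count of 0.5. Single ratios have exact Clopper-Pearson 95% intervals conditional on both counts, and within-pair ratios exact conditional odds ratio intervals; both cover counting error only. Genes entered at a mean CPM of at least 1. Level comparisons used the deposited coding length. Calculations, in Python 3.11.15 with scipy 1.17.1, were checked on simulated data. edgeR's tests need replicates and were not run. The members, lists and rules were chosen with earlier results of these data known.

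Named pairs followed a rule: the 6 nested pairs with the highest less abundant partner, the 4 with the largest level difference, pairs with a model past the 2-fold rule, all partial overlaps, and hosts of several models. At most 2 identifiers per direction (mean CPM of at least 5) are printed; 0 qualified as higher. Alternatives were other scalings, filters, intervals, prior counts and overlap definitions.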

Additional observations from a re-analysis of the deposited data

How the results depend on the processing

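Of 61 alternative values, 45 stayed close to those reported, among them all under the 3 other scalings. Requiring shared exonic bases left 8 models in partial overlaps, with 0 higher, 0 lower, 0 pairs with a differing within-pair ratio, a median log2 ratio of -0.27, a median level difference of 1.14 and a median difference of partners' ratios of 0.40; this setting keeps fewer models by construction. At a mean CPM of at least 10, 0 models were higher and 1 pair had a differing within-pair ratio. With no interval required, 3 models were higher, 5 lower, and 6 pairs differed. Of all overlapping models, 82.9% had at least 1 count. Without scaffold 5, chosen after seeing the data, 88.2% were measurable. The level difference of nested pairs, inner minus host, went from a median of -1.24 to 0.26 with both partners at 10 CPM or more. Of those 51 nested pairs, 8 share 1 host whose nesting is uncertain, with the inner model higher in each. The median was -0.28 with both partners at 10 CPM per kilobase or more. These 2 settings keep fewer pairs and were chosen after seeing the data, and the cause was not tested. No paired analysis was possible because each condition has 1 library; for the same reason no library could be left out. Below a mean CPM of 10, depth limits single models.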

Other observations

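Overlapping models were spread over 20 of the 105 scaffolds. Scaffold 5 held most, 59 of its 2746 models, of which 47 had no count, followed by scaffold 3 with 43 of 2321 and scaffold 1 with 40 of 4273. Away from scaffold 5, inner models were measurable in 111 of 137 cases and hosts in 115 of 118. Models nested on the same strand without shared exonic bases were measurable in 45 of 65 cases, with a median of 6.93 CPM per kilobase, against 116 of 180 and 8.60 for those nested on the opposite strand. Besides 405 and 411 nt, 10 combinations of coding length and exon number occurred in 2 inner models each. Both of the single-exon models of 2238 nt and both of the 2-exon models of 723 nt had no count in either library.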
